A study of Mus musculus with 9 samples.

Results

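A set of 10 genes in common use as markers of the contractile cells around blood vessels were followed here, all of them present among the 16698 genes of the deposited expression table. They were taken by name: Pdgfrb, Rgs5, Cspg4, Mcam, Abcc9 and Higd1b, used for pericytes, and Tagln, Cnn1, Smtn and Lmod1, used for smooth muscle. The left ventricles came from ICR/CD1 mice aged 14 days, and their messenger RNA was sequenced in 3 groups of 3 libraries. Transverse aortic constriction (TAC) ties off part of the aortic arch, which raises the pressure that the left ventricle has to overcome. One group was operated on postnatal day 1 (day-1 TAC) and another on postnatal day 7 (day-7 TAC). The third had sham surgery on a day that its labels do not state. The mouse heart can regenerate just after birth and loses this ability within the first week. The groups set an early against a later operation at a shared age of sampling. The day-1 TAC group had thus also been constricted for longer. Age at operation and time under constriction therefore cannot be told apart in any difference between the TAC groups.

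Pericytes sit on capillaries inside the basement membrane of the endothelium, and smooth muscle cells form the wall of arterioles, arteries and larger veins. Together they are called mural cells. Endothelial cells recruit them by releasing PDGF-B, which binds the receptor PDGFR-beta, and stabilise them through angiopoietin, Notch and TGF-beta signals. Contractile genes of smooth muscle are driven by serum response factor (SRF) with its coactivator myocardin, and in the growing heart the mural coat forms as the coronary vessels mature. None of the 10 genes is made by mural cells alone. Mcam is also made by endothelium, Cspg4 by glial progenitors, Tagln by myofibroblasts, and Abcc9 encodes a channel subunit that cardiomyocytes use too.

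Recovered depth was 18535202 to 26521005 reads per library. Day-1 TAC replicate 1 stood furthest from its group, with chi-square values of 25.05 and 25.59 per gene against its group members, where the other pairs within groups lay between 8.703 and 19.62. Day-1 TAC replicate 3 differed from the other libraries in sex-linked transcripts: the X-linked Xist stood at 9.09 on the log2 scale, against -1.46 to 0.93 in the other libraries, and the Y-linked Ddx3y at -0.10, against 7.37 to 7.67. The labels used here do not give the sex of the animals, nor a batch. For each list below, the number of genes called is given with and without either library, and for the 10 markers the calls that changed without it are named. In bulk tissue, fewer cells of a type and less RNA per cell cannot be told apart.

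The markers did not move as a block. With day-1 TAC, Tagln, Mcam, Cspg4 and Higd1b rose and Abcc9, Smtn and Rgs5 fell against sham. The calls of Rgs5 and Higd1b were each lost in 11 of 21 alternative fits. Without day-1 TAC replicate 1 only Abcc9, Tagln and Smtn stayed called. With day-7 TAC, Mcam and Cspg4 rose and Smtn and Lmod1 fell. Over all tested genes, 34.8% were called with day-1 TAC and 28.9% with day-7 TAC. The change furthest from 0 among the calls was that of Abcc9 with day-1 TAC, to 2.12-fold below sham. Pdgfrb, the marker most often used to define the lineage, was not called in any comparison. Tagln alone was called between the TAC groups, higher with day-1 TAC.

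Levels were ranked between genes after division by the length of their merged exons, as a linear value per kilobase. In sham the order was led by Rgs5 with 216 ± 21 (SD, n = 3), Smtn with 129.8 ± 14.9 and Abcc9 with 90.1 ± 14.8. Pdgfrb (29.3 ± 1.83), Mcam (26.4 ± 1.87) and Tagln (21.4 ± 2.99) formed a middle tier. Higd1b (6.19 ± 0.978), Cspg4 (2.85 ± 0.345), Lmod1 (1.96 ± 0.186) and Cnn1 (1.19 ± 0.399) were lowest. Pdgfrb and Mcam were the only neighbours in this order whose mean ± SD ranges overlapped. The shares and sums that follow are of linear values not divided by length. Rgs5, Abcc9 and Smtn together made up 86.1% to 88.0% of the summed linear value of the 10 markers in sham, 79.5% to 81.6% with day-7 TAC and 74.9% to 80.4% with day-1 TAC. A sum over the markers therefore follows mainly these genes, and it ran from 2504 to 2831 in sham, 2141 to 2253 with day-7 TAC and 1735 to 2135 with day-1 TAC. Smtn stood far above the other smooth muscle markers per length. The tissue also held Acta2 and Myh11, the smooth muscle actin and myosin heavy chain. They read 7.77 ± 0.45 and 6.39 ± 0.16 on the log2 scale in sham, not divided by length.

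**Figure D1:**
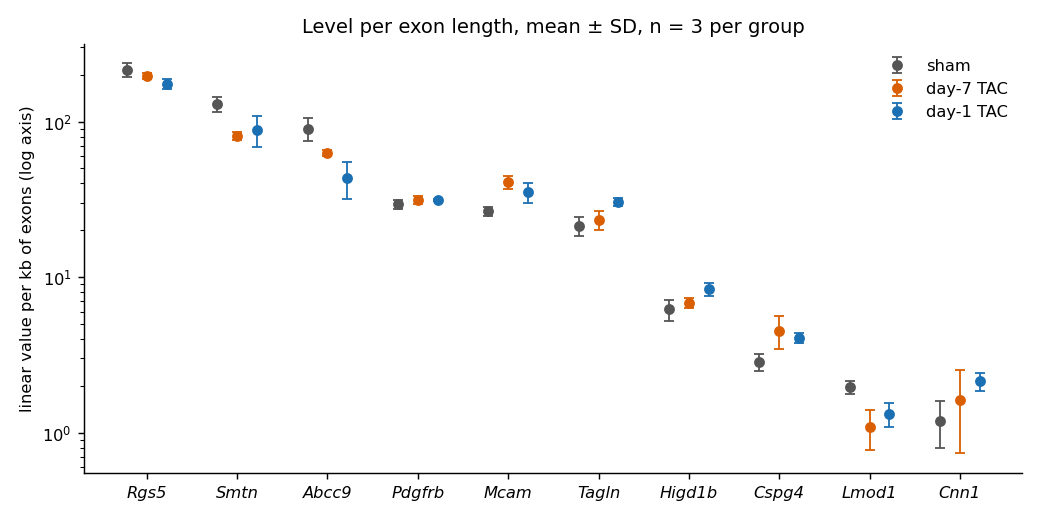
Linear value per kilobase of merged exons (log axis) for each marker, ordered by its sham mean, with points for the mean and bars for the SD of the 3 libraries of a group. Rgs5 is highest in every group, from 216 in sham to 175 with day-1 TAC, and Cnn1 and Lmod1 are lowest.

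Pdgfrb encodes the PDGF-B receptor that draws mural cells to new vessels. It is annotated on chromosome 18 from 61045150 to 61085061 on the plus strand (GRCm38, GENCODE M21). Its log2 value was 7.42, 7.30 and 7.25 in sham, 7.42, 7.33 and 7.50 after day-7 TAC, with 7.43, 7.40 and 7.44 after day-1 TAC. The groups overlapped, and the day-1 TAC libraries all lay inside the range of the day-7 TAC libraries. The difference from sham was 0.10 (95% CI -0.06 to 0.25) with day-1 TAC and 0.09 (-0.06 to 0.24) with day-7 TAC, and that between the TAC groups was 0.01 (-0.15 to 0.16). Other ways of scaling the libraries, quantile normalization and total reads, gave a called rise with day-1 TAC of 0.21 and 0.20 (limma adjusted p = 0.0398 and 0.0484).

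Rgs5 encodes a regulator of G protein signalling that shortens the response to angiotensin and endothelin in mural cells, and lies at chr1:169655501-169695813 on the plus strand. It stood at 10.08, 9.90 and 9.81 in sham, 9.75, 9.77 and 9.87 after day-7 TAC, with 9.57, 9.58 and 9.75 after day-1 TAC. All 3 day-1 TAC libraries were below all sham libraries, and the day-7 TAC libraries overlapped sham. The day-1 TAC fall was 0.30 on the log2 scale (SE 0.09, limma adjusted p = 0.0265), and the day-7 TAC difference was -0.14 (-0.34 to 0.06, limma adjusted p = 0.281). The day-1 TAC call was lost under each of the 5 other scalings tried, with differences of -0.26 to -0.20 and limma adjusted p of 0.0545 to 0.14. It was also lost without sham replicate 1 (-0.23), sham replicate 2 (-0.32), day-1 TAC replicate 1 (-0.27) or day-1 TAC replicate 2 (-0.27).

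Abcc9 encodes SUR2, the sulfonylurea receptor subunit that joins the pore Kir6.1 in the potassium channel of mural cells and Kir6.2 in that of cardiomyocytes. The gene spans chr6:142587862-142702315 on the minus strand. Its log2 value was 9.40, 9.81 and 9.43 in sham, 8.99, 9.11 and 9.04 after day-7 TAC, with 7.98, 8.68 and 8.74 after day-1 TAC. The groups did not overlap in any pairing, and day-1 TAC replicate 1 was the lowest library. Against sham, Abcc9 fell by 1.08 with day-1 TAC (SE 0.18, limma adjusted p = 0.00174) and was called under each of the 21 alternatives run, with -0.84 in the fit without day-1 TAC replicate 1. The day-7 TAC difference of -0.50 (SE 0.18, limma adjusted p = 0.0637) was not called. It was called in the fit of sham and day-7 TAC alone (limma adjusted p = 0.0117) and without day-1 TAC replicate 1 (limma adjusted p = 0.00657), where its size was the same. Between the TAC groups the difference was -0.58 (limma adjusted p = 0.0531), and it was called at -0.72 without day-1 TAC replicate 3 (limma adjusted p = 0.0394). Abcc9 shares 158 exonic bases with the antisense gene 5330439B14Rik, which read 0.98 ± 0.31 in sham, 0.26 ± 0.41 with day-7 TAC and -0.20 ± 0.27 with day-1 TAC. Whether the counting used strand is not known here, so reads of these overlapping exons cannot be told apart.

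Higd1b encodes a mitochondrial protein of the hypoxia-inducible domain family and is a pericyte marker in single-cell catalogues. It lies at chr11:102835849-102838040 on the plus strand. It was measured on 106 to 151 reads per library and stood at 2.57, 2.12 and 2.46 in sham, 2.46, 2.67 and 2.49 after day-7 TAC, with 2.84, 2.69 and 2.97 after day-1 TAC. The day-1 TAC libraries were above all sham and all day-7 TAC libraries. The rise over sham was 0.45 (SE 0.15, limma adjusted p = 0.044), and it lost its call in 11 of 21 alternatives, among them leaving out sham replicate 2 (0.31), sham replicate 3 (0.49), day-1 TAC replicate 1 (0.45), day-1 TAC replicate 3 (0.38) or any 1 day-7 TAC library (0.45). The day-7 TAC difference was 0.15 (limma adjusted p = 0.479).

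Cspg4 encodes the NG2 proteoglycan of the pericyte surface, and Mcam the adhesion protein CD146, shared by pericytes, smooth muscle and endothelium. Cspg4 lies at chr9:56865033-56899870 and Mcam at chr9:44134469-44142727, both on the plus strand. Cspg4 stood at 4.87, 5.17 and 5.20 in sham, 6.10, 5.48 and 5.59 after day-7 TAC, with 5.70, 5.49 and 5.61 after day-1 TAC. Every TAC library was above every sham library, and the TAC groups overlapped. Mcam read 6.35, 6.55 and 6.50 in sham, 6.99, 7.24 and 7.04 after day-7 TAC, with 7.08, 6.65 and 6.89 after day-1 TAC. Here too all TAC libraries were above all sham libraries.

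With day-7 TAC, Cspg4 rose by 0.65 on the log2 scale (SE 0.15, limma adjusted p = 0.0108), a 1.56-fold rise. Mcam rose by 0.62 (SE 0.11, limma adjusted p = 0.00286), a 1.54-fold rise. With day-1 TAC, Cspg4 rose by 0.52 (SE 0.15, limma adjusted p = 0.0237) and Mcam by 0.41 (SE 0.11, limma adjusted p = 0.0172). The day-1 TAC calls were lost for both without sham replicate 1 (Cspg4 0.41, Mcam 0.35) and without day-1 TAC replicate 1 (Cspg4 0.47, Mcam 0.31), and for Cspg4 without day-1 TAC replicate 3 (0.52). The day-7 TAC calls were kept under every library left out, with 0.46 for Cspg4 without day-7 TAC replicate 1, its highest library. Between the TAC groups Cspg4 differed by -0.13 (limma adjusted p = 0.605) and Mcam by -0.21 (limma adjusted p = 0.209), neither called. Mcam shares 17 exonic bases with the antisense gene model Gm10687.

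Tagln encodes transgelin (SM22), an actin-bundling protein of smooth muscle, and lies at chr9:45929619-45936058 on the minus strand. Its log2 value was 5.29, 5.30 and 5.63 in sham, 5.74, 5.48 and 5.35 after day-7 TAC, with 5.84, 6.01 and 5.90 after day-1 TAC. The day-1 TAC libraries were above all 6 other libraries, while sham and day-7 TAC overlapped. Tagln rose by 0.51 with day-1 TAC (SE 0.12, limma adjusted p = 0.00876), 1.42-fold over sham, and this call was kept under every library left out and every scaling. With day-7 TAC the difference was 0.12 (limma adjusted p = 0.493). Of the 1988 exonic bases of Tagln, 1241 overlap the antisense gene model Gm48529 and 108 overlap Pcsk7, which read 5.15 ± 0.11 in sham, 5.37 ± 0.07 with day-7 TAC and 5.03 ± 0.19 with day-1 TAC.

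Cnn1 encodes calponin, an inhibitor of the actomyosin ATPase that marks differentiated smooth muscle, and lies at chr9:22099216-22109630 on the plus strand. It was measured on 51 to 173 reads per library and stood at 1.35, 1.45 and 2.18 in sham, 2.85, 1.84 and 1.36 after day-7 TAC, with 2.75, 2.42 and 2.44 after day-1 TAC. The day-1 TAC libraries were above all sham libraries, and the day-7 TAC group spread over nearly the whole range. The day-1 TAC difference was 0.88 (SE 0.35, 95% CI 0.11 to 1.65, limma adjusted p = 0.0727) and was not called. It was called in the fit of sham and day-1 TAC alone (limma adjusted p = 0.0281), without sham replicate 3 (1.14), without day-7 TAC replicate 1 (0.88) and without day-7 TAC replicate 3 (0.88). The day-7 TAC difference was 0.36 (limma adjusted p = 0.468) and turned to -0.06 without day-7 TAC replicate 1. That library, the highest for Cnn1 and Cspg4, also stood apart from the other day-7 TAC libraries in atrial markers. Myl7, an atrial myosin light chain, read 6.57 in it against 4.68 and 4.76, Myl4 read 7.57 against 5.87 and 5.90, and Sln (sarcolipin) read 4.18 against 1.52 and 2.08. In sham Myl7 read 5.52 to 6.29, Myl4 6.46 to 7.21 and Sln 2.95 to 3.34. After day-1 TAC the ranges were 5.69 to 6.78, 7.19 to 7.96 and 3.03 to 4.11. Day-7 TAC replicates 2 and 3 were thus below all other libraries in these genes, and replicate 1 was nearer to the other groups. The summed linear value of the 6 atrial markers present was 6153 in day-7 TAC replicate 1, against 3957 and 4557 in the other day-7 TAC libraries. The sum was 589 to 771 in sham and 2940 to 4722 with day-1 TAC. It follows mainly Nppa, which read 12.5, 11.9 and 12.11 after day-7 TAC. The sum therefore says little of Myl7, Myl4 and Sln, and the amount of atrial tissue was not tested. Nppa read 8.58 to 9.21 in sham and 11.37 to 12.12 with day-1 TAC. Of the 5 markers tested, 2 were higher with day-7 TAC (Nppa and Dkk3) and 0 lower, against 13.8% and 15.1% of all genes. With all libraries, Myl7, Myl4 and Sln were not called against sham after either operation. In the fit without that library 1 marker was higher and 3 lower with day-7 TAC. Its part in the values of Cnn1 and Cspg4 beyond the fits without it was not tested.

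Smtn encodes smoothelin, an actin-associated protein of contractile smooth muscle, and lies at chr11:3517523-3540612 on the minus strand. It read 8.98, 9.31 and 9.15 in sham, 8.38, 8.46 and 8.55 after day-7 TAC, with 8.17, 8.84 and 8.73 after day-1 TAC. All 6 TAC libraries were below all sham libraries. Smtn fell by 0.68 with day-7 TAC (SE 0.16, limma adjusted p = 0.00929), to 1.60-fold below sham, and fell by 0.57 with day-1 TAC (SE 0.16, limma adjusted p = 0.0176). The day-1 TAC call was lost without sham replicate 2 (-0.49, limma adjusted p = 0.0687) and under quantile normalization (-0.44, limma adjusted p = 0.0618), and the difference was -0.36 without day-1 TAC replicate 1. Smtn shares 714 exonic bases with Gm11946 on the other strand, which read 0.84 ± 0.17, 0.91 ± 0.26 and 0.64 ± 0.18 in sham, day-7 TAC and day-1 TAC.

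Lmod1 encodes leiomodin 1, which nucleates actin filaments in smooth muscle, and lies at chr1:135324807-135368065 on the plus strand. It was measured on 57 to 177 reads per library and stood at 3.05, 2.79 and 3.01 in sham, 2.42, 1.57 and 2.17 after day-7 TAC, with 2.05, 2.51 and 2.51 after day-1 TAC. All TAC libraries were below all sham libraries. Lmod1 fell by 0.90 with day-7 TAC (SE 0.22, limma adjusted p = 0.0131), to 1.86-fold below sham. The day-1 TAC difference was -0.59 (SE 0.22, limma adjusted p = 0.0599) and was not called. It was called without day-7 TAC replicate 1 or 2, in the fit of sham and day-1 TAC alone and with a pseudocount of 1 (limma adjusted p = 0.0468, 0.0256, 0.0341 and 0.0493).

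**Figure D2:**
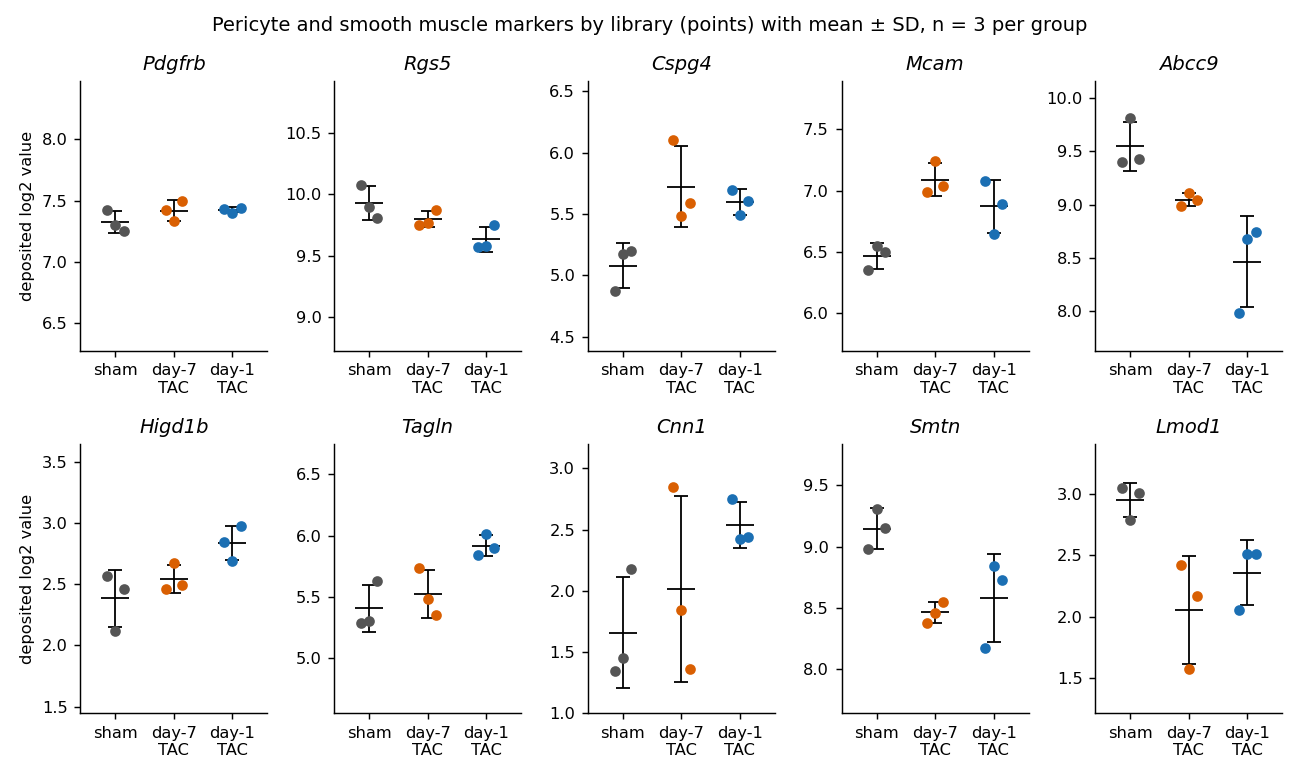
Deposited log2 value of each marker (y axis) in sham, day-7 TAC and day-1 TAC, with a point for each library, a bar for the mean and whiskers for the SD. Abcc9 is highest in sham and lowest with day-1 TAC without overlap, Cspg4 and Mcam are above sham in all 6 TAC libraries, Smtn and Lmod1 are below it, and Tagln is high in the day-1 TAC libraries, at 5.84 to 6.01.

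Seen by role, the surface markers were split, since Cspg4 and Mcam were higher after both operations and the receptor gene Pdgfrb was called after neither. The contractile markers were split too. Smtn and Lmod1 lay below sham in every TAC library, while Tagln and Cnn1 lay above sham in every day-1 TAC library. With day-1 TAC, Lmod1 and Cnn1 were not called (limma adjusted p = 0.0599 and 0.0727). How many of all genes lay apart from sham in this way was not counted, so the lack of overlap has no background here. The 2 comparisons share the sham libraries, so their differences are not independent of each other.

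Cspg4, Mcam and Smtn were the markers called in the same direction after both operations, and their upstream sequences are shown for that reason. RefSeq entries of GRCm38.p6 were matched by symbol for 7 of the 10 markers, Pdgfrb, Higd1b and Tagln being the ones without a match. The windows are the 250 bases before the annotated start, 5′ to 3′ on the strand of the gene, at chr9:56864854-56865103 (plus) for Cspg4, chr9:44134408-44134657 (plus) for Mcam and chr11:3539293-3539542 (minus) for Smtn. These starts all lie inside the GENCODE spans given above, so the windows of Cspg4 and Mcam reach into their gene and that of Smtn lies within it. Each window is printed up to the first base in an exon that GENCODE gives for the gene, which leaves 179 bases of Cspg4, 61 of Mcam and 219 of Smtn. Capitals mark GC boxes (GGGCGG or CCGCCC) and, in Smtn, the MCAT element CATTCC.
Cspg4: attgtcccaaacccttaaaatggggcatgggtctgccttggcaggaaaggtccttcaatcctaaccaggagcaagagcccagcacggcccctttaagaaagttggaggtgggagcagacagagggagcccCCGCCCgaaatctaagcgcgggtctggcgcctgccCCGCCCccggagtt
Mcam: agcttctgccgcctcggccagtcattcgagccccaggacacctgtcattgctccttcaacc
Smtn: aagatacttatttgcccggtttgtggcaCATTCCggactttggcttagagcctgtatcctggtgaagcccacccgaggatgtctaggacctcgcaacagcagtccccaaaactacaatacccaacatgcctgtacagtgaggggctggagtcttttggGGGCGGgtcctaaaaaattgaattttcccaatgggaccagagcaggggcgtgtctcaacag
The whole Mcam window held 5 GC boxes at a GC content of 73.6%, the Cspg4 window held 2 at 60.4%, and the Smtn window held 2 and an MCAT element at 53.2%. All 5 of the Mcam boxes and 1 of the Smtn boxes lie past the printed bases.

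Over the 7 matched markers, 5 windows held a GC box on either strand (Abcc9, Cspg4, Lmod1, Mcam and Smtn), against 32.7% of all 32851 windows of this length in the table. An MCAT element (CATTCC or GGAATG) stood in 3 (Abcc9, Lmod1 and Smtn), against 12.6% of all windows. The CArG box, the site bound by SRF, was found in 0 of 7 windows and in 1.47% of all windows, and the TATA box (TATAAA or TTTATA) in 0 of 7 and in 12.4%. These matches describe the letters of the windows only. GC boxes did not sort the markers by direction, since they stood in the windows of Mcam and Cspg4, which rose, and of Smtn and Abcc9, which fell. The MCAT element stood only in windows of markers whose means were below sham after both operations. It was absent from the window of Rgs5, whose means were below sham as well. Whether these motifs bear on the direction was not tested.

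Counted over the list, 7 of 10 markers passed the test in the day-1 TAC comparison with sham, 4 upward and 3 downward, where 34.8% of all 13712 tested genes were called, 14.3% higher and 20.5% lower. In the day-7 TAC comparison 4 of 10 passed, 2 upward and 2 downward, against 28.9% of all genes, 13.8% higher and 15.1% lower. The second share is near the background. The median difference of the markers was 0.25 with day-1 TAC and 0.10 with day-7 TAC, against -0.04 and -0.01 over all tested genes. All 10 markers passed the filter on low values. Of all day-1 TAC calls 41.1% were higher than sham, and this share was 58.2% with upper-quartile scaling and 60.1% with total-read scaling. For day-7 TAC it was 47.7%, and 59.7% with total-read scaling.

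The day-1 TAC count depended on single libraries. It was 3 of 10 without day-1 TAC replicate 1 (Abcc9, Tagln and Smtn), 4 without sham replicate 1, 4 without sham replicate 2, and 5 without day-1 TAC replicate 3. The day-7 TAC count was 4 or 5 whichever library was left out. When the test was set against a change of 1.2-fold in place of 0, 1 marker was called with day-1 TAC (Abcc9) and 0 with day-7 TAC, with limma adjusted p from 0.0529 (Mcam) to 0.127 (Cspg4) for those called against 0.

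**Figure D3:**
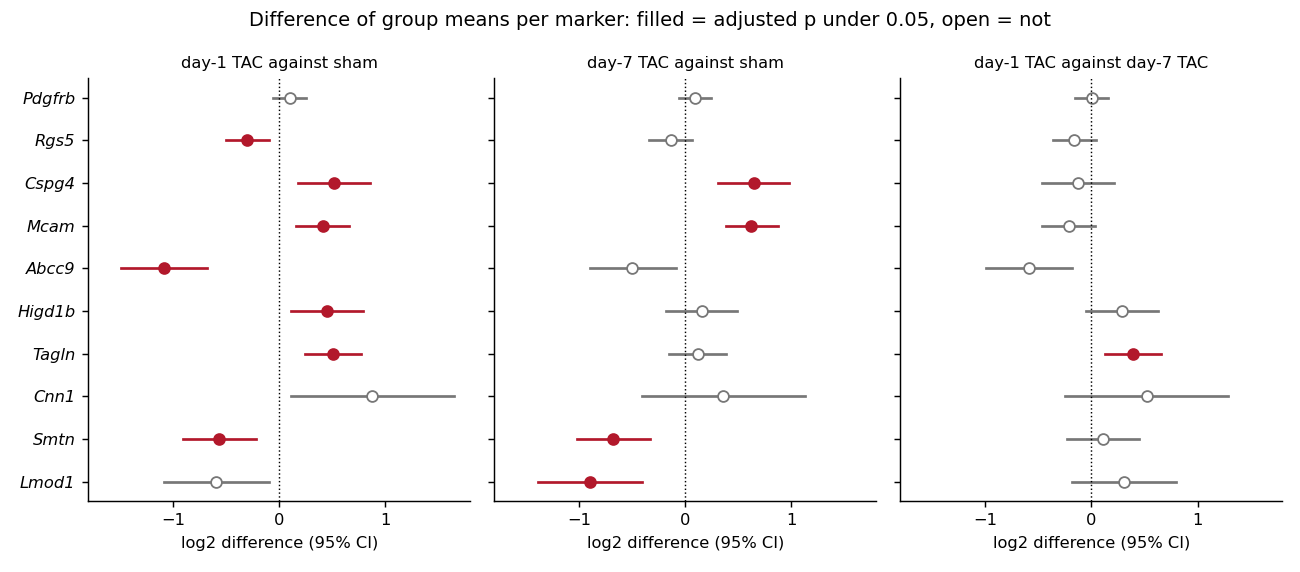
Difference of group means on the log2 scale (x axis) for each marker in the 3 comparisons, with points for the estimate and bars for its 95% CI, filled where the limma adjusted p was under 0.05. In the comparison of the TAC groups only the Tagln point is filled, at 0.39.

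Between the operations, Tagln was the only marker called, at 0.39 higher with day-1 TAC (SE 0.12, 95% CI 0.13 to 0.66, limma adjusted p = 0.0475), a 1.31-fold difference, where 16.7% of all genes were called, 6.42% higher and 10.3% lower. Of all these calls 38.5% were higher with day-1 TAC, and the share was 48.5% to 56.8% with quantile, total-read, trimmed-mean and upper-quartile scaling. The Tagln call was lost in 10 of 22 alternatives. It was lost without sham replicate 2 (0.39, limma adjusted p = 0.0578), day-7 TAC replicate 2 (0.37) or 3 (0.31), and day-1 TAC replicate 1 (0.43), 2 (0.35) or 3 (0.40). The markers' median was 0.06, against -0.03 over all genes. The intervals for Pdgfrb, given above, and for Smtn (0.11, limma adjusted p = 0.657) included 0, which does not show that the groups were alike.

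By the F test over the 3 groups, 6 of 10 markers were called, where 44.4% of all genes were. They were Abcc9 (limma adjusted p = 0.00353), Mcam (0.00433), Smtn (0.0112), Cspg4 (0.0137), Tagln (0.0141) and Lmod1 (0.0203). Rgs5 (0.0515), Higd1b (0.0787), Cnn1 (0.132) and Pdgfrb (0.402) were not.

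Among 40 other contractile and cytoskeletal genes of smooth muscle, all tested, 9 were higher and 4 lower with day-1 TAC. Over all genes these shares were 14.3% and 20.5%. With day-7 TAC 9 were higher and 4 lower, against 13.8% and 15.1% of all genes. Without day-1 TAC replicate 1 the day-1 TAC numbers were 11 higher and 3 lower, and without day-1 TAC replicate 3 they were 9 and 4. With each of the 9 libraries left out in turn, 7 to 11 were higher and 3 to 5 lower with day-1 TAC, and 4 to 10 higher and 1 to 5 lower with day-7 TAC. Their medians were 0.18 and 0.17, against -0.04 and -0.01 over all tested genes. Tpm2, the beta-tropomyosin gene, rose by 2.63 with day-1 TAC (SE 0.26, limma adjusted p = 0.000152) and by 1.56 with day-7 TAC. With day-1 TAC, Cnn2, a calponin found outside smooth muscle as well, rose by 0.69, and Csrp2, a LIM protein of smooth muscle, rose by 0.50. With day-7 TAC, Flna, which encodes filamin A, rose by 0.60 and Cald1, which encodes caldesmon, by 0.43.

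Acta2, the smooth muscle actin, had another order than Tagln. It read 7.31, 7.79 and 8.20 in sham, 8.91, 8.75 and 8.87 after day-7 TAC, with 7.64, 8.47 and 7.95 after day-1 TAC. All day-7 TAC libraries were above all others, and day-1 TAC overlapped sham. Acta2 rose by 1.08 with day-7 TAC (SE 0.23, limma adjusted p = 0.00663), differed by 0.25 with day-1 TAC (limma adjusted p = 0.42), and had a difference of -0.83 between day-1 and day-7 TAC (limma adjusted p = 0.0339). Myh11 read 6.26, 6.35 and 6.56 in sham, 6.26, 6.09 and 6.38 after day-7 TAC, with 6.16, 6.79 and 6.92 after day-1 TAC, with no call in any comparison (limma adjusted p = 0.324, 0.546 and 0.152). Between the TAC groups 2 genes of this list were higher with day-1 TAC, Tpm2 (1.08) and Itga7 (0.47), where 6.42% of all genes were. Another 3 were lower, among them Itga8 (-0.43) and Acta2, where 10.3% of all genes were. These calls were lost for Acta2 without any 1 day-7 TAC library (-0.87 to -0.79) or without day-1 TAC replicate 1 (-0.64) or 3 (-0.79). They were lost for Itga8 without any 1 day-7 TAC library (-0.44 to -0.41) or day-1 TAC replicate 3 (-0.32), and for Tpm2 without day-7 TAC replicate 2 (0.95) or 3 (1.01) or day-1 TAC replicate 3 (1.08).

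Of 32 pericyte genes other than the markers, 29 were in the table and tested. The lists share genes. Acta2 and Des stand in this list and the smooth muscle list, and Kcnj8, Ednra, Notch3 and Heyl recur in lists below. Cnn2 is in the smooth muscle list and that of the markers' relatives. The counts of the lists are therefore not independent of each other. With day-1 TAC 5 were higher and 9 lower, against 14.3% and 20.5% of all genes. With day-7 TAC 3 were higher and 3 lower, against 13.8% and 15.1%. The day-1 TAC numbers became 3 higher and 8 lower without day-1 TAC replicate 1 and 4 and 7 without replicate 3. Over all 9 libraries left out in turn the ranges were 2 to 5 higher and 6 to 9 lower with day-1 TAC, and 1 to 4 and 3 to 5 with day-7 TAC. Agtr1a, the angiotensin II receptor, fell by 1.07 with day-1 TAC (SE 0.10, limma adjusted p = 0.000104) and fell by 1.18 with day-7 TAC (SE 0.10, limma adjusted p = 7.85e-05). Art3, an ADP-ribosyltransferase family gene, fell as well (-1.5 and -1.05). Foxs1, a forkhead factor, rose by 1.14 with day-1 TAC. Vtn, which encodes vitronectin, fell by 1.04 with day-7 TAC (SE 0.17, limma adjusted p = 0.00177), differed by -0.47 with day-1 TAC (limma adjusted p = 0.0535), and was higher with day-1 than day-7 TAC by 0.57 (limma adjusted p = 0.0427). The call between the TAC groups was lost without any 1 day-7 TAC library (0.49 to 0.62), day-1 TAC replicate 2 (0.51) or 3 (0.49), or sham replicate 2 (0.57). Desmin (Des), which cardiomyocytes hold in bulk, rose by 0.37 with day-1 TAC, a call lost without sham replicate 2 (0.36).

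Kcnj8 encodes Kir6.1, the pore that Abcc9's product joins in mural cells. It read 5.59, 5.56 and 5.36 in sham, 5.42, 5.25 and 5.35 after day-7 TAC, with 5.0, 5.12 and 5.09 after day-1 TAC. All day-1 TAC libraries were below all others. Kcnj8 fell by 0.44 with day-1 TAC (SE 0.09, limma adjusted p = 0.00371), against -1.08 for Abcc9, and differed by -0.16 with day-7 TAC (limma adjusted p = 0.178). Abcc8, which encodes the related receptor SUR1, stood at 6.26 ± 0.27 in sham, 5.88 ± 0.14 with day-7 TAC and 5.71 ± 0.32 with day-1 TAC.

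Potassium channel subunits and other RGS genes made a list of 11, of which 9 were tested. In it, 1 was higher and 5 lower with day-1 TAC, against 14.3% and 20.5% of all genes. With day-7 TAC 0 were higher and 2 lower, against 13.8% and 15.1%. The day-1 TAC numbers became 1 higher and 4 lower without day-1 TAC replicate 1 and 1 and 5 without replicate 3. Over all 9 libraries left out in turn the ranges were 1 to 2 higher and 3 to 5 lower with day-1 TAC, and 0 and 1 to 3 with day-7 TAC. Rgs2, which also dampens Gq signals in vascular smooth muscle, fell by 2.04 with day-1 TAC (SE 0.25, limma adjusted p = 0.000385) and fell by 1.09 with day-7 TAC, and was lower with day-1 than day-7 TAC by -0.95 (limma adjusted p = 0.0278). The call between the TAC groups was lost without day-1 TAC replicate 1 (-0.72) or 2 (-0.93) and without day-7 TAC replicate 1 (-0.73) or 2 (-0.98). Rgs12 fell too (-0.65 and -0.35), and its day-7 TAC call was lost without day-7 TAC replicate 1 (-0.31), sham replicate 1 (-0.28) or sham replicate 2 (-0.33). Rgs16 rose by 1.31 with day-1 TAC, from 0.70 ± 0.21 in sham to 2.01 ± 0.16. The difference of -0.30 in Rgs5 with day-1 TAC was nearer to 0 than those of Rgs2 and Rgs12.

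Relatives of the markers were taken as a list of 17 genes, of which 14 were tested. With day-1 TAC 5 were higher and 6 lower, against 14.3% and 20.5% of all genes. With day-7 TAC 2 were higher and 3 lower, against 13.8% and 15.1%. The day-1 TAC numbers became 3 higher and 5 lower without day-1 TAC replicate 1 and 3 and 4 without replicate 3. Over all 9 libraries left out in turn the ranges were 3 to 5 higher and 3 to 5 lower with day-1 TAC, and 1 to 4 and 1 to 3 with day-7 TAC. Cnn3, a calponin of many cell types, rose by 0.56 with day-1 TAC and 0.60 with day-7 TAC, and Cnn2 rose by 0.47 with day-7 TAC. That Cnn2 call was lost without day-7 TAC replicate 1 (0.45) or 2 (0.36) and without sham replicate 1 (0.40) or 2 (0.42). Alcam, the adhesion relative of Mcam, fell (-0.95 and -0.88), opposite to Mcam. Smtnl2, a relative of Smtn, fell by 0.48 with day-1 TAC.

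The signals that recruit mural cells were followed in 30 ligands, receptors and enzymes, all tested. With day-1 TAC 4 were higher and 7 lower, against 14.3% and 20.5% of all genes. With day-7 TAC 5 were higher and 2 lower, against 13.8% and 15.1%. The day-1 TAC numbers became 3 higher and 6 lower without day-1 TAC replicate 1 and 3 and 7 without replicate 3. Over all 9 libraries left out in turn the ranges were 3 to 7 higher and 6 to 7 lower with day-1 TAC, and 4 to 6 and 1 to 3 with day-7 TAC. Angpt1, the ligand through which mural cells act on the endothelial receptor Tie2, stood at 4.0, 4.39 and 4.38 in sham, 2.28, 2.29 and 2.16 after day-7 TAC, with 2.78, 3.10 and 2.89 after day-1 TAC. No groups overlapped. Angpt1 fell by 2.02 with day-7 TAC (SE 0.14, limma adjusted p = 3.89e-05) and fell by 1.33 with day-1 TAC (SE 0.14, limma adjusted p = 0.000194), and was higher with day-1 than day-7 TAC by 0.68 (limma adjusted p = 0.0105).

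Pdgfb, the ligand of Pdgfrb, read 4.88, 4.96 and 4.96 in sham, 5.33, 5.49 and 5.31 after day-7 TAC, with 5.18, 5.04 and 5.24 after day-1 TAC. It rose by 0.45 with day-7 TAC (SE 0.08, limma adjusted p = 0.00377) and differed by 0.22 with day-1 TAC (limma adjusted p = 0.0633). Its receptor gene was not called in either comparison, as given above. Hbegf, an EGF receptor ligand, rose by 1.39 with day-1 TAC and 1.70 with day-7 TAC. Ednra, the endothelin A receptor of smooth muscle, fell by 1.1 with day-1 TAC (SE 0.12, limma adjusted p = 0.00022), and Ece1, which makes active endothelin, fell by 0.43. Acvrl1, an endothelial receptor of the TGF-beta family, rose by 0.47 with day-7 TAC. Notch3, the mural Notch receptor, differed by 0.09 and 0.14 from sham and was not called.

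**Figure D4:**
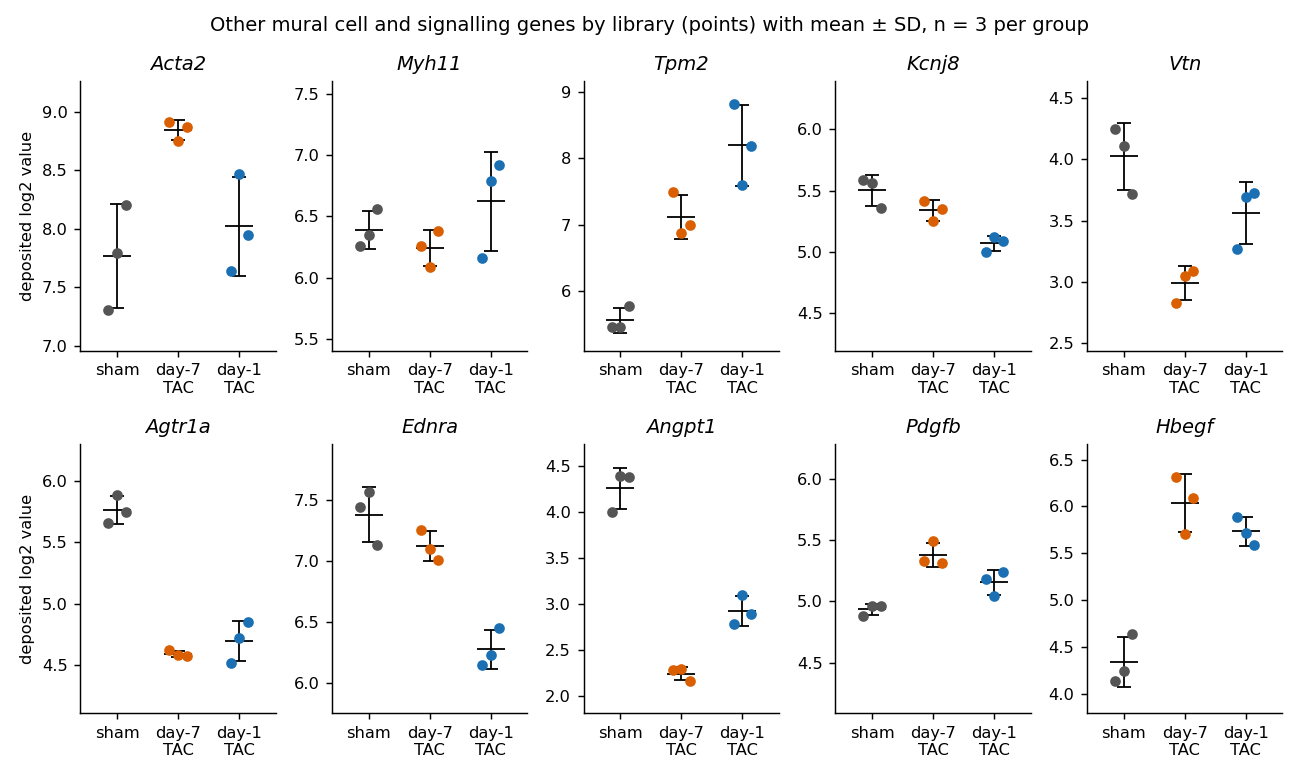
Deposited log2 value (y axis) of 10 further mural cell and signalling genes in sham, day-7 TAC and day-1 TAC, with a point for each library, a bar for the mean and whiskers for the SD. Acta2 is high in the day-7 TAC libraries, Tpm2 rises from sham to day-7 TAC to day-1 TAC, Angpt1 is lowest with day-7 TAC, and Kcnj8 and Ednra are lowest with day-1 TAC.

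Regulators around SRF, myocardin, MEF2 and Notch effectors made a list of 24, of which 21 were tested. With day-1 TAC 1 was higher and 5 lower, against 14.3% and 20.5% of all genes. With day-7 TAC 0 were higher and 3 lower, against 13.8% and 15.1%. The day-1 TAC numbers became 1 higher and 3 lower without day-1 TAC replicate 1 and 2 and 5 without replicate 3. Over all 9 libraries left out in turn the ranges were 0 to 2 higher and 2 to 5 lower with day-1 TAC, and 0 to 1 and 0 to 5 with day-7 TAC. Myocd, the myocardin gene, which cardiomyocytes also express, fell by 0.76 with day-1 TAC (SE 0.21, limma adjusted p = 0.0173) and differed by -0.36 with day-7 TAC (limma adjusted p = 0.223). The Myocd difference was -0.48 without day-1 TAC replicate 1 (limma adjusted p = 0.0209), and its call was lost without sham replicate 2 (-0.68, limma adjusted p = 0.0646). Hey2, a Notch effector, fell (-1.0 and -0.37), as did Mef2a (-0.58 and -0.25), and Heyl rose by 0.53 with day-1 TAC. Srf differed by -0.11 and 0.38 from sham without a call, and was lower with day-1 than day-7 TAC by -0.49 (limma adjusted p = 0.0415). The Srf call was lost without any 1 day-1 TAC library (-0.50 to -0.49), day-7 TAC replicate 1 (-0.37) or 2 (-0.49), or sham replicate 3 (-0.49). The day-7 TAC calls of Hey2 and Mef2a were lost without day-7 TAC replicate 1 (-0.39 and -0.23) or 3 (-0.27 and -0.23) and without sham replicate 2 (-0.33 and -0.22) or 3 (-0.35 and -0.27), and that of Mef2a also without sham replicate 1 (-0.28). The Heyl call was lost without sham replicate 1 (0.44).

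Markers of other cells of the ventricle moved with the groups, and their part in the results above was not tested. Shares of all genes called were 14.3% higher and 20.5% lower with day-1 TAC, and 13.8% and 15.1% with day-7 TAC. The counts here and in the next paragraph stand against these shares. The summed linear value of 12 cardiomyocyte markers was 152090 to 159374 in sham, 132131 to 141996 with day-7 TAC and 117093 to 146502 with day-1 TAC, with 3 of the 12 lower and 1 higher with day-1 TAC, and 2 lower and 1 higher with day-7 TAC. This stood beside the falls of Abcc9 and Smtn, with day-1 TAC replicate 1 lowest for Abcc9, Smtn and Myocd. The sum of 9 myofibroblast markers was 701 to 1107 in sham, 1680 to 1747 with day-7 TAC and 1357 to 2672 with day-1 TAC. Of the 9, 7 were higher with day-1 TAC and 6 with day-7 TAC. Tagln was called with day-1 TAC only, and Acta2, itself one of the 9, rose against sham with day-7 TAC only. Within day-1 TAC, replicate 1 had the highest myofibroblast sum, 2672, and the lowest Tagln value, 5.84. Postn, a defining myofibroblast gene, rose by 1.27 and 1.15, and Col8a1 by 2.74 with day-1 TAC. The day-7 TAC call of Postn was lost without sham replicate 1 (1.07) or 2 (1.03). Without day-1 TAC replicate 1 the day-1 TAC sums were 141643 to 146502 for cardiomyocyte and 1357 to 1519 for myofibroblast markers, with 1 cardiomyocyte marker lower and 1 higher and 6 myofibroblast markers higher. Without replicate 3 these numbers were 2, 1 and 7. The 6 myofibroblast calls with day-7 TAC became 2 without sham replicate 1 and 3 without sham replicate 2. The 2 lower cardiomyocyte calls with day-7 TAC became 0 without any 1 day-7 TAC library, sham replicate 1 or sham replicate 2. The 3 lower with day-1 TAC also became 1 without sham replicate 2 or 3 or day-7 TAC replicate 2 or 3.

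The sum of 7 large artery markers was 652 to 816 in sham, 776 to 845 with day-7 TAC and 936 to 1249 with day-1 TAC. In that list 2 were higher with day-1 TAC, Mfap4 (1.2) and Eln (0.67), and Cytl1 was lower after both operations (-1.18 and -1.16). The sum of 13 endothelial markers was 1996 to 2100 in sham, 1936 to 2027 with day-7 TAC and 1799 to 1992 with day-1 TAC, beside the rise of Mcam, with 0 higher and 4 lower with day-1 TAC, and 1 higher and 2 lower with day-7 TAC. Of 10 macrophage markers 4 were higher with day-1 TAC and 2 lower with day-7 TAC. Of 12 fibroblast markers 3 were higher and 1 lower with day-1 TAC and 0 were called by limma with day-7 TAC, with 1 (Lum, limma adjusted p = 0.0569) at an unadjusted p under 0.05. Without day-1 TAC replicate 1 the day-1 TAC sums were 936 to 954 for large artery and 1826 to 1992 for endothelial markers. In that fit 3 large artery markers were higher and 1 lower, 3 endothelial markers lower, 1 macrophage marker higher, and 2 fibroblast markers higher and 1 lower. Without day-1 TAC replicate 3 they were 3 and 1, 3, 1, and 4 and 1. The 4 macrophage calls with day-1 TAC also became 1 without sham replicate 1 and 2 without sham replicate 2, and the 4 endothelial calls became 2 without sham replicate 1.

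Genes with the pattern most like a marker were taken by Pearson's r over the 9 libraries among 10590 named genes, as a description. For Tagln they were Stk16 (r = 0.96), Nt5m (0.949) and Pcyox1l (0.946), and for Cnn1 they were Tyrobp (0.92), Stk16 (0.916) and Zdhhc5 (0.911). Stk16 thus stood in both lists. For Pdgfrb they were Naxd (0.942), Nop9 (0.904) and Medag (0.894), and for Rgs5 they were Vps11 (0.982), Rassf4 (0.964) and Fabp4 (0.961). None of the other 9 markers was among these genes. The libraries share their groups and their scaling, so such an r carries the group differences.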

How the data were processed

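Poly(A) RNA libraries from 9 samples of left ventricle, 3 per group, were sequenced as single-end reads. The authors deposited log2 values scaled by TMM, per the file headers, for 16710 rows of gene symbols. Trim Galore, STAR, edgeR and the build mm10 appear in the submitters' processing notes, with no versions, annotation or strand setting given here. The 12 rows of 3 symbols listed 4 times each were left out, which kept 16698 genes.

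On the linear scale low values were whole multiples of 1 step (within 0.001 reads), which gave the recovered reads. Adding 1 read to every gene cannot be told from adding none. Genes above 0 in at least 3 libraries (13712) were tested with limma 3.58.1 (R 4.3.3, intensity trend) on the log2 values of all 9 libraries, two-sided, with Benjamini-Hochberg adjustment over all tested genes and calls at an adjusted p under 0.05. Alternatives covered the filter, scaling, pseudocount, model and each library left out. The steps were tested on simulated data. The labels do not say whether samples came from separate animals, so the p-values describe spread between these samples only. Pairs of libraries within groups differed by chi-square values of at least 8.7 per gene, more than sampling noise gives, and each was counted as a sample. Both of 2 sham columns share a header name, so their numbers 2 and 3 follow column order and pair nothing.

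Members and gene lists were chosen with earlier results of these data known. The genes named were the 10 markers, in each list described up to 4 genes with the smallest p in a comparison and a few defining genes, and for 4 markers the 3 genes closest by correlation. A gene that this rule gave is not reported here. Lists of Schwann, epicardial, adipocyte, atrial, red cell and mitochondrial transcripts held 5, 2, 1, 5, 2 and 0 tested genes. They held 2, 1, 1, 2, 0 and 0 calls with day-1 TAC, and 3, 1, 0, 2, 0 and 0 with day-7 TAC. Over all genes 34.8% and 28.9% were called. Coordinates are from GENCODE M21 (GRCm38), exon lengths are of merged exons, and upstream sequences are from RefSeq (GRCm38.p6).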

Additional observations from a re-analysis of the deposited data

Results flagged for a closer look

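The difference of Tagln between the TAC groups, 0.392 on the log2 scale, was past the threshold in the direct test of the operations against each other. Tagln was 1.42-fold over sham with day-1 TAC and 0.12 on the log2 scale from sham with day-7 TAC. The limma adjusted p of the direct test was 0.0475 and ranged from 0.0292 to 0.837 over its alternatives.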

How the results depend on the processing

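Over the alternatives, 167 of 210 member values for day-1 TAC against sham kept their direction and side of the threshold, 33 lost a call, 10 gained one and 0 turned. For day-7 TAC against sham these numbers were 202, 4, 2 and 2 of 210, and between the TAC groups 206, 10, 1 and 3 of 220. Total-read scaling, trimmed-mean scaling of the recovered reads and the fits of the other gene lists with a library left out were chosen after the data were seen. With 1 library left out, the number of markers called ran from 3 to 8 for day-1 TAC, from 4 to 5 for day-7 TAC and from 0 to 1 between the TAC groups, where the 1 called without day-1 TAC replicate 3 was Abcc9. Against a minimum fold change of 1.2 the numbers were 1, 0 and 0. Between the TAC groups it was also 0 with no filter on low values, with no intensity trend and with the replicate block over the 6 TAC libraries. The replicate numbers pair nothing: same-numbered TAC libraries deviated with r of -0.224, -0.11 and -0.0365 across genes, none best with its own number, and the block moved the calls over all genes from 2050 to 1167. Directions turned for Rgs5 with day-7 TAC under quantile normalization (0.0214), and with 1 library left out for Cnn1 with day-7 TAC (-0.0584 to 0.689) and, between the TAC groups, for Cspg4 (-0.247 to 0.0612), Pdgfrb (-0.0344 to 0.0492) and Smtn (-0.0188 to 0.315). The cause was not tested. Cnn1, Lmod1 and Higd1b rest on 51 to 177 reads per library, which limits their precision.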
